A study of Mus musculus with 15 samples.

Results

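A set of 10 genes of apoptotic cell uptake was described in BV2 cells, a mouse microglial line that the study used as a macrophage model. They are the receptors *Mertk*, *Axl*, *Tyro3* and *Stab1*, the bridging ligands *Mfge8*, *Gas6* and *Pros1*, and the engulfment adaptors *Elmo1*, *Dock2* and *Gulp1*. They were chosen by gene symbol, 10 of the 54390 genes in the count tables. RNA was sequenced from 15 libraries in 4 groups. WT cells gave 4 non-foamy and 4 foamy libraries, and Trem2-/- cells gave 3 non-foamy and 4 foamy libraries. Foamy cells had received soluble cholesterol at 20 µg/ml overnight, and non-foamy cells had received media alone. By the study's methods the soluble cholesterol was prepared with methyl-beta-cyclodextrin. None of the 4 groups received this carrier alone, so effects of cholesterol and of the carrier cannot be told apart. Cholesterol below stands for this mixture. The design asks how cholesterol loading and loss of Trem2, alone and together, changed gene expression. By the study's methods the Trem2-/- cells came from a single clone of BV2 cells carrying Cas9, transfected with a guide RNA to *Trem2* and cloned again by dilution, and the sources used here do not say whether the WT cells were that Cas9 clone or the parent line. They also do not say whether the replicates of a group were separate cultures, and p-values then measure only the spread between these libraries. Every Trem2-/- library came from cells that were edited and cloned. Loss of Trem2 and other differences between the Trem2-/- and WT lines therefore cannot be told apart. Genotype below stands for this difference between the lines.

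Macrophages clear dying cells through receptors that read phosphatidylserine, a lipid that apoptotic cells expose on their surface. The TAM receptors (*Tyro3*, *Axl* and *Mertk*) are receptor tyrosine kinases that see it through the soluble ligands Gas6 and protein S (the product of *Pros1*). The secreted protein Mfge8 bridges it to alpha v integrins, and stabilin-1 (*Stab1*) binds it directly. Inside the cell, Elmo1 and Dock2 form part of the exchange factors that activate Rac and move the actin skeleton around the corpse, and Gulp1 is an adaptor of engulfment receptors. *Mertk* is the TAM receptor that macrophages are best known for using in this process.

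In these cells *Mfge8* was the most abundant transcript of the set, *Mertk* made up nearly all TAM receptor RNA, and the ligands *Gas6* and *Pros1* were close to 0. Trem2-/- cells held more *Mertk* (2.35-fold without and 1.41-fold with cholesterol) and more *Mfge8* (1.73-fold and 1.26-fold) and less *Elmo1* (0.571-fold and 0.638-fold) than WT cells. Cholesterol raised *Mertk* in WT cells by 1.49-fold, and the response of Trem2-/- cells differed from that of WT cells for *Mertk* and, in a call that 11 of 22 alternatives lost, for *Mfge8*.

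The libraries held between 23538963 and 41683825 counts. Levels are given in CPM, the count of a gene scaled to the size of its library with TMM factors, with the s.d. over libraries. Changes are log2 fold changes from edgeR's quasi-likelihood fit of all 15 libraries. Their s.e. was derived as the absolute log2 fold change divided by the square root of the F statistic of edgeR's test. Genes were called at an adjusted p (Benjamini-Hochberg, over 14237 tested genes) under 0.05. Counts from 1 to 20 were even numbers in 80.8 to 82.1% of cases in every library, against 49.3 to 51.3% of counts over 1000, so a count of 2 may stand for 1 read pair. An observed count of 0 allows a true level of up to 3 counts, which equal 0.0669 to 0.132 CPM depending on the library, or up to 0.264 CPM where 1 read pair gave 2 counts. *Trem2*, the targeted gene, was lower in Trem2-/- libraries (214 to 232 CPM) than in WT libraries (327 to 415 CPM), with a log2 fold change of −0.67 ± 0.08 without cholesterol and −0.73 ± 0.07 with it. These counts do not show whether the reading frame is intact. The study reports that it checked the loss of Trem2 protein in these cells by flow cytometry. All 10 macrophage markers examined passed the filter on low counts, whereas *Sall1*, a regulator that defines microglia of the brain, and the 4 fibroblast markers had no count in any library. The summed level of the macrophage markers ran from 3697 to 4570 CPM in WT libraries and from 5345 to 5588 CPM in Trem2-/- libraries, and *Cd68* and *Tyrobp* held most of it. Of the 10 markers 7 were higher and 1 lower in Trem2-/- cells in both genotype comparisons. The lower one was *Cx3cr1*, the fractalkine receptor (log2 −2.35 without and −0.98 with cholesterol, edgeR adjusted p = 7.61e-05 and 0.0401). Across all tested genes, calls above WT made up 21.0% among non-foamy and 14.3% among foamy cells, and calls below WT 22.6% and 15.9%. When total counts alone set the scale, 7 markers were higher among non-foamy cells but only 5 among foamy cells, and 1 was lower in each. Endothelial markers went the other way from the macrophage sum, at 4.64 to 9.88 CPM in WT and 1.91 to 4.42 CPM in Trem2-/- libraries. Nearly all of this was *Kdr* (*Pecam1* and *Cdh5* had 92 and 4 counts in all). Markers of astrocytes, neurons, lymphocytes and epithelium summed to at most 0.254 CPM per list and library. The macrophage and endothelial sums move with every genotype difference given here, and their part in them was not tested. In bulk RNA, more cells of a kind and more RNA per cell cannot be told apart. WT non-foamy replicate 3, the library with the fewest counts, stood apart from all others on the second principal component of the tested genes, which held 8.78% of the variance.

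Of the 10 genes, 6 passed the filter (*Mertk*, *Axl*, *Stab1*, *Mfge8*, *Elmo1* and *Dock2*). *Axl* passed only through the WT libraries, where it is higher, so the filter itself favoured a difference between genotypes. The other 4 were at or near 0. *Tyro3* and *Gulp1* had no count in any of the 15 libraries. *Gas6* had 4 counts in WT foamy replicate 1, 2 counts in Trem2-/- foamy replicate 4 and none elsewhere. *Pros1* had 2 counts each in WT non-foamy replicates 2 and 4 and none elsewhere. Neither soluble ligand of the TAM receptors was therefore detected above 4 counts in any library, and no comparison was made for these 4 genes.

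**Figure D1:**
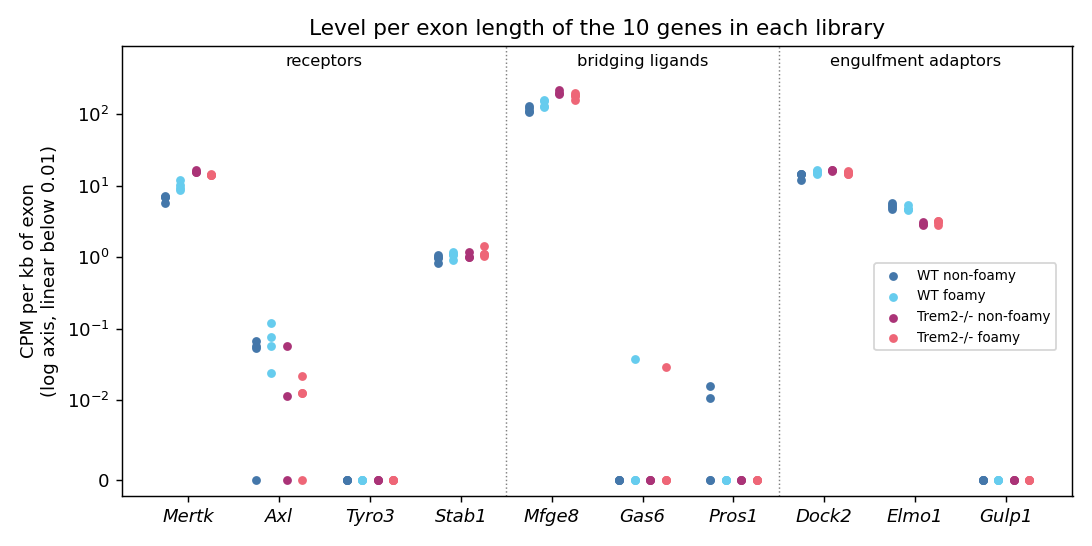
Level of each of the 10 genes in each library, as CPM per kb of exon on an axis that is logarithmic above 0.01 and linear below it. Each point is 1 library, coloured by group; dotted lines separate receptors, bridging ligands and engulfment adaptors. *Mfge8* sits highest in every library, *Axl* lies at most at 0.121 and *Tyro3* and *Gulp1* lie at 0.

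Levels of different genes were compared per kb of exon, counting each exonic base of a gene once. *Mfge8* came first in all 4 groups, at 117 ± 11.0 CPM per kb in WT non-foamy cells, 143 ± 15.1 in WT foamy cells, 203 ± 10.9 in Trem2-/- non-foamy cells and 180.0 ± 17.2 in Trem2-/- foamy cells. *Dock2* followed at 14.0 to 16.3 CPM per kb in the group means. *Mertk* came next, at 6.77 ± 0.650 CPM per kb in WT non-foamy cells and 15.9 ± 0.479 in Trem2-/- non-foamy cells. In WT libraries the values of *Mertk* and *Dock2* did not overlap, and in both Trem2-/- groups they did, so the order of these neighbours is not set there. *Elmo1* (2.97 to 5.20 CPM per kb), *Stab1* (0.969 to 1.18) and *Axl* (0.0118 to 0.0699) followed in that order in every group, each without overlap with the gene before it. The order rests on the length used: with the longest transcript of each gene in place of all exons, *Elmo1* stood above *Mertk* in both WT groups. *Mertk* made up 98.8 to 100% of the summed level per kb of the 3 TAM receptors in each library.

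The 250 bases before the RefSeq transcription start (GRCm38.p6) are shown for *Mertk* and *Mfge8*, which were both higher in Trem2-/- cells, for *Elmo1*, which was lower, and for *Dock2*, which changed least among these 4. The sequences are read from 5′ to 3′ on the gene's strand. They lie at chr2:128698665-128698914 (plus strand) for *Mertk*, chr7:79149061-79149310 (minus strand) for *Mfge8*, chr13:20090257-20090506 (plus strand) for the first of the 2 starts of *Elmo1*, and chr11:34783906-34784155 (minus strand) for *Dock2*. Capitals mark the GC box (GGGCGG, bound by Sp1-type factors) and the core of sites for PU.1 (GAGGAA), the transcription factor that defines macrophages, both on either strand.
Mertk: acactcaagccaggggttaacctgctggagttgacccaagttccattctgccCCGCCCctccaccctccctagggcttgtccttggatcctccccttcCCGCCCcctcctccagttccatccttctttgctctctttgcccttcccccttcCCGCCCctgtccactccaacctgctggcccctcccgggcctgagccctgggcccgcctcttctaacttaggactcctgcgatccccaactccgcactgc
Mfge8: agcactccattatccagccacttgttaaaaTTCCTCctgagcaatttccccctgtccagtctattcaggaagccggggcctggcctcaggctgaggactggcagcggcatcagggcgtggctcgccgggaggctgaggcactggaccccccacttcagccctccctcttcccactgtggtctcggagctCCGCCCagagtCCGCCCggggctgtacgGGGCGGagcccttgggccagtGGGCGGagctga
Elmo1: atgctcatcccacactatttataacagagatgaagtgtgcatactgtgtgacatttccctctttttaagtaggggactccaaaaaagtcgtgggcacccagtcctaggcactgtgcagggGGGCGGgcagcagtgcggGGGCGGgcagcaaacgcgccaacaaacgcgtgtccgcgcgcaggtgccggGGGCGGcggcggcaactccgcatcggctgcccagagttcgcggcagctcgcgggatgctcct
Dock2: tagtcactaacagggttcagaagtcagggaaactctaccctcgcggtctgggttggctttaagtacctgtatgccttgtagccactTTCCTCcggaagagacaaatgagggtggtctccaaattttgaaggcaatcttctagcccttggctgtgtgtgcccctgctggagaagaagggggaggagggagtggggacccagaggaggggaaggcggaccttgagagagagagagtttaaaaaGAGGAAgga
The window of *Mertk* held 3 GC boxes, that of *Mfge8* 4 and that of *Elmo1* 3, whereas that of *Dock2* held none. Of the 32817 RefSeq windows of this length, 32.7% hold at least 1. Windows of the genes at or near 0 held GC boxes too: 5 for *Pros1*, 4 for *Gas6*, 3 for *Tyro3* and 1 for *Gulp1*. The window of *Axl* held 1, and those of *Stab1* and of the second start of *Elmo1* held none. The PU.1 core was found 2 times before *Dock2* and 1 time before *Mfge8* and not before *Mertk* or *Elmo1*, against 23.3% of all windows. It was also found 1 time each before *Axl* and *Stab1*, and not before *Gas6*, *Pros1*, *Tyro3*, *Gulp1* or the second start of *Elmo1*. Neither the half-site of nuclear receptors (AGGTCA, in 14.0% of windows) nor the AP-1 site (TGANTCA, in 6.75%) was found in any of the 11 windows of the 10 genes, searched on both strands. A match of letters is a description and not a bound site.

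*Mertk* (ENSMUSG00000014361, chr2:128698956-128802894, plus strand, GRCm38) was the one receptor called in 4 of the 5 comparisons. In WT non-foamy cells it was measured at 30.4, 30.4, 25.2 and 31.4 CPM in replicates 1 to 4. In WT foamy cells it reached 51.5, 44.7, 40.8 and 37.8 CPM. Every foamy WT library was thus above every non-foamy one. In Trem2-/- non-foamy cells *Mertk* was measured at 68.3, 67.6 and 71.5 CPM, and in Trem2-/- foamy cells at 61.8, 60.4, 63.7 and 61.2 CPM. All 7 Trem2-/- libraries lay above all 8 WT libraries, and the Trem2-/- foamy libraries lay just below the non-foamy ones. The mean was 29.3 ± 2.82 CPM in non-foamy (n = 4) and 43.7 ± 5.94 CPM in foamy WT cells (n = 4). It was 69.1 ± 2.07 CPM in non-foamy (n = 3) and 61.8 ± 1.40 CPM in foamy Trem2-/- cells (n = 4).

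Cholesterol raised *Mertk* in WT cells by 0.57 ± 0.08 on the log2 scale (1.49-fold, edgeR adjusted p = 0.000279). In Trem2-/- cells the log2 change was −0.16 ± 0.09 (edgeR adjusted p = 0.799, interval of 2 s.e. on each side −0.33 to 0.01). The difference of the responses was −0.73 ± 0.12 (edgeR adjusted p = 0.00099). *Mertk* was 2.35-fold higher in Trem2-/- than in WT cells without cholesterol (log2 1.23 ± 0.09, edgeR adjusted p = 2.02e-10) and 1.41-fold higher with it (log2 0.50 ± 0.08, edgeR adjusted p = 5.84e-05). Without WT non-foamy replicate 3, the WT library lowest in *Mertk*, the response of WT cells was 0.51 (edgeR adjusted p = 0.000396) and the difference of the responses −0.67 (edgeR adjusted p = 0.000558).

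**Figure D2:**
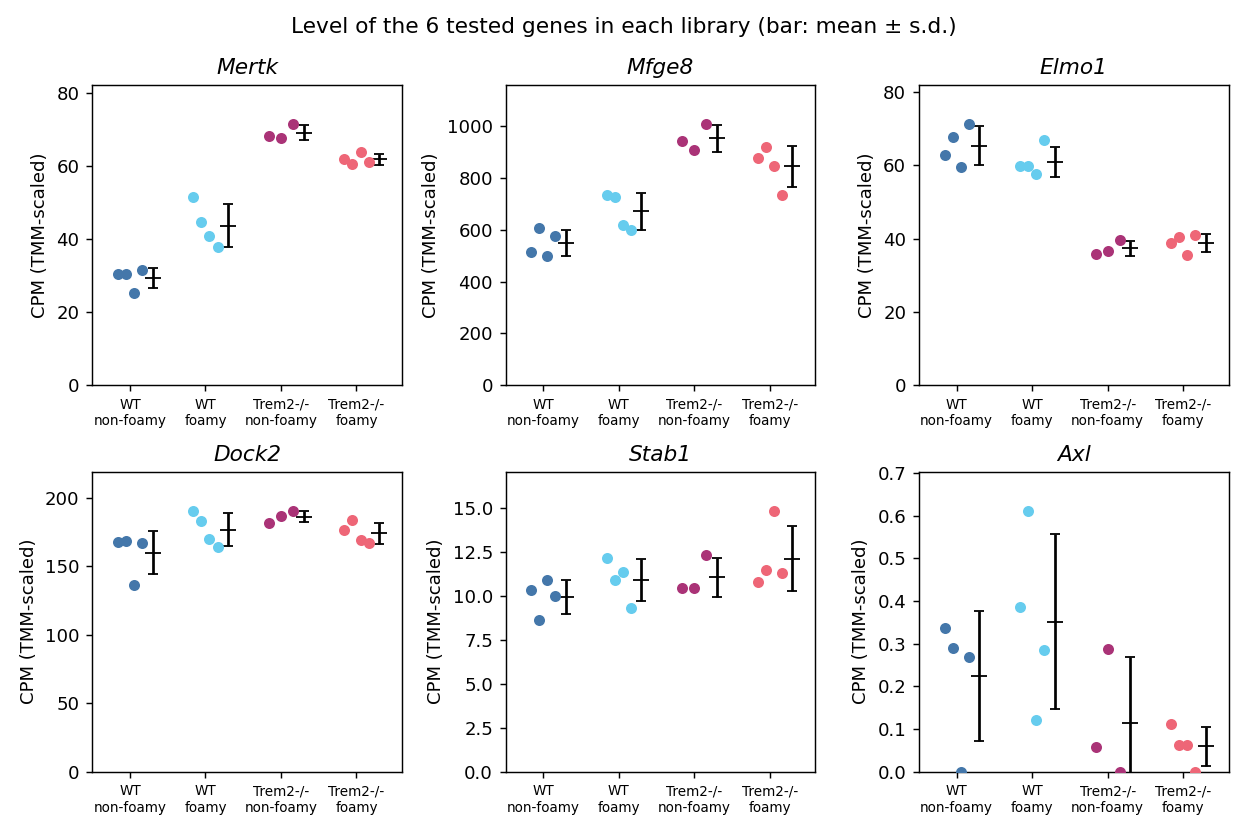
Level of the 6 tested genes in each library in CPM after TMM scaling, on linear axes from 0, for non-foamy and foamy WT cells (n = 4 each) and for Trem2-/- cells without (n = 3) and with cholesterol (n = 4). Points are libraries and bars are the mean ± s.d.; for *Axl* the lower end of the bar is cut at 0 in 1 group. *Mertk* rises with cholesterol in WT cells and stands at 60.4 to 71.5 CPM in all Trem2-/- libraries, and *Elmo1* stands at 35.5 to 40.9 CPM there against 57.5 to 71.3 CPM in WT libraries.

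*Axl* (ENSMUSG00000002602, chr7:25757273-25788705, minus strand) was near the limit of detection. Its counts were 13, 9, 0 and 12 in WT non-foamy cells and 16, 25, 4 and 10 in WT foamy cells. In Trem2-/- cells they were 2, 8 and 0 without cholesterol and 4, 2, 2 and 0 with it. These are 0 to 0.611 CPM, and the 4 Trem2-/- foamy libraries held 8 counts together against 55 in the WT foamy ones. edgeR gave a log2 difference of −2.44 ± 0.84 between foamy Trem2-/- and WT cells (adjusted p = 0.0311), which is no support for a difference, since *Axl* was tested only because of its WT counts. Leaving out 1 of 4 single foamy libraries (WT replicate 2 or Trem2-/- replicate 2, 3 or 4) took this adjusted p to between 0.0590 and 0.106.

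*Stab1* (ENSMUSG00000042286, chr14:31139013-31168641, minus strand), the scavenger receptor stabilin-1, was at 8.63 to 12.2 CPM in WT libraries and 10.4 to 14.8 CPM in Trem2-/- libraries, and the groups overlapped in every comparison. It was called in none of the 5 comparisons. Between genotypes its log2 difference was 0.15 ± 0.12 without cholesterol (interval of 2 s.e. −0.10 to 0.40) and 0.15 ± 0.11 with it (interval −0.08 to 0.37). The largest rise that these intervals allow is therefore 0.40 on the log2 scale. Of its exonic bases, 1.09% overlap *Nt5dc2* on the other strand, and the strand setting of the counting is not given in the sources used here.

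*Mfge8* (ENSMUSG00000030605, chr7:79133768-79149060, minus strand), the bridging ligand also called lactadherin, was the most counted of the 10 genes. In WT non-foamy cells it was measured at 514, 609, 499 and 576 CPM, and in WT foamy cells at 736, 728, 619.6 and 599.7 CPM. These groups overlapped, since 1 non-foamy library lay above the lowest foamy one. In Trem2-/- non-foamy cells it was measured at 942, 909 and 1009 CPM and in Trem2-/- foamy cells at 879, 921, 847 and 733 CPM. The non-foamy groups did not overlap between genotypes, and among foamy cells 1 Trem2-/- library fell within the WT range. The means were 549 ± 51.8, 671 ± 71.1, 953 ± 51.0 and 845 ± 80.5 CPM in the order of the groups above.

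*Mfge8* was 1.73-fold higher in Trem2-/- than in WT cells without cholesterol (log2 0.79 ± 0.09, edgeR adjusted p = 1.76e-07) and 1.26-fold higher with it (log2 0.33 ± 0.08, edgeR adjusted p = 0.00381). The second of these calls was lost with total counts alone as the scale (log2 0.20, edgeR adjusted p = 0.148) and in none of the 15 other alternatives. In WT cells the log2 response to cholesterol was 0.29 ± 0.08, which did not pass the test (edgeR adjusted p = 0.0621), and DESeq2 called it (adjusted p = 0.0196). Over its 16 alternatives the adjusted p of edgeR or DESeq2 ran from 0.00225 to 0.216. In Trem2-/- cells it was −0.17 ± 0.09 (edgeR adjusted p = 0.791). The responses differed by −0.46 ± 0.12 (edgeR adjusted p = 0.0368), in the same direction as for *Mertk*, which shares these libraries. This call ended when any of 9 of the 15 libraries was left out: WT non-foamy replicate 1, WT foamy replicates 1 and 2, each of the 3 Trem2-/- non-foamy replicates, or Trem2-/- foamy replicates 1, 3 and 4 (edgeR adjusted p up to 0.108). The integrin subunits that pair as receptors of Mfge8, named here after their values were seen, were measured at 51.4 to 54.7 CPM in the group means for *Itgav* and 25.2 to 34.8 CPM for *Itgb5*. *Itgb3*, the alternative beta subunit, had 8 counts in all libraries together.

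*Elmo1* (ENSMUSG00000041112, chr13:20090596-20608353, plus strand) was the adaptor that differed most between genotypes. It was measured at 62.9, 67.9, 59.4 and 71.3 CPM in WT non-foamy cells and at 59.8, 59.7, 57.5 and 66.9 CPM in WT foamy cells. In Trem2-/- cells it was measured at 35.9, 36.6 and 39.7 CPM without cholesterol and at 38.7, 40.5, 35.5 and 40.9 CPM with it. Every Trem2-/- library lay below every WT library, and within a genotype the foamy and non-foamy libraries overlapped. *Elmo1* was lower in Trem2-/- cells without cholesterol (log2 −0.81 ± 0.08, edgeR adjusted p = 1.70e-08) and with it (log2 −0.65 ± 0.07, edgeR adjusted p = 3.36e-07). The log2 response to cholesterol was −0.10 ± 0.07 in WT cells and 0.06 ± 0.08 in Trem2-/- cells, and neither was called. Of its exonic bases, 3.20% overlap the antisense gene *Gm32036*, and 2.93% of its stretches of 50 bases occur in other transcripts, so a small share of its reads may belong elsewhere.

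*Dock2* (ENSMUSG00000020143, chr11:34226815-34783892, minus strand), the exchange factor partner of Elmo1 in blood cells, changed little. It was measured at 168, 169, 136 and 167 CPM in WT non-foamy cells and at 190.4, 183, 169.5 and 164 CPM in WT foamy cells. The Trem2-/- values were 182, 186 and 190.4 CPM without cholesterol and 176, 184, 169 and 167 CPM with it. *Dock2* was higher in Trem2-/- than in WT non-foamy cells (log2 0.22 ± 0.07, edgeR adjusted p = 0.0204), with no overlap. This call rested on WT non-foamy replicate 3, whose 136 CPM lay far below the 167 to 169 CPM of the others: without it the log2 difference was 0.15 (edgeR adjusted p = 0.0606). It was also lost without Trem2-/- non-foamy replicate 2 (edgeR adjusted p = 0.0553) or 3 (edgeR adjusted p = 0.0727) and with total counts alone as the scale (log2 0.07, edgeR adjusted p = 0.592), and held in the other 11 of its 15 alternatives. Among foamy cells the log2 difference was −0.02 ± 0.07 (interval of 2 s.e. −0.16 to 0.12). Of its exonic bases, 4.03% overlap the antisense gene *4930403D09Rik*.

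**Figure D3:**
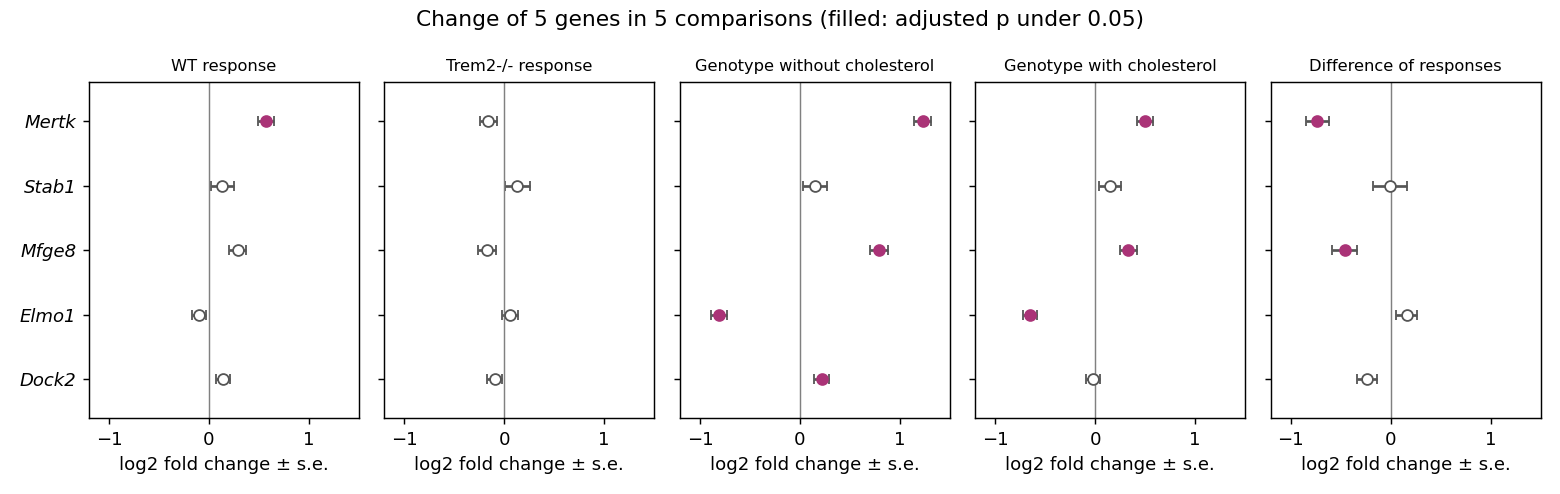
Log2 fold change ± s.e. of *Mertk*, *Stab1*, *Mfge8*, *Elmo1* and *Dock2* in the 5 comparisons: foamy against non-foamy cells of each genotype, Trem2-/- against WT cells without and with cholesterol, and the response of Trem2-/- cells minus that of WT cells. Filled points have an edgeR adjusted p under 0.05. *Mertk* and *Mfge8* lie right of 0 and *Elmo1* left of 0 in both genotype comparisons, and *Axl* is left out because of its s.e. of 0.69 to 1.3.

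Counted together, 1 of the 6 tested genes was called in the response of WT cells (*Mertk*), where 2.8% of all tested genes were called. Its libraries did not overlap between the WT groups, as for 9.71% of all genes, and 1.66% of all genes were called higher. In the response of Trem2-/- cells edgeR and DESeq2 called 0 of the 6, none had an unadjusted p under 0.05, and 0.14% of all genes were called. The libraries of 1 of the 6, *Mertk*, did not overlap there, against 9.26% of all genes. Without cholesterol 4 of the 6 differed between genotypes, 3 higher and 1 lower in Trem2-/- cells, against 43.6% of all genes (21.0% higher and 22.6% lower). With cholesterol 4 of the 6 differed, 2 higher and 2 lower, against 30.2% of all genes (14.3% higher and 15.9% lower). One of the lower genes is *Axl*, and without it 3 of 5 differed, 2 higher and 1 lower. The difference of the responses was called for 2 of the 6, both with the lower response in Trem2-/- cells, against 3.64% of all genes (1.64% in that direction). Leaving out *Axl*, 4 of 5 differed without cholesterol. Many genes of the whole transcriptome differed between WT and Trem2-/- cells, and the genotype counts were not tested against the shares of all genes. Between groups without cholesterol, the genotypes of 4 of the 6 genes did not overlap, against 46.1% of all tested genes. With cholesterol this held for 3 of the 6, or 2 of 5 without *Axl*, against 28.8%. The median log2 difference of the 6 was 0.19 without cholesterol and 0.06 with it, against 0.02 and 0.00033 over all tested genes. These medians include *Axl*, at −1.08 and −2.44. Without *Axl* the middle values of the other 5 were those of *Dock2* (0.22) and *Stab1* (0.15). The comparisons share libraries, so these counts are not independent of each other.

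Of 57 further genes of apoptotic cell uptake, sorted by role, 45 passed the filter. Among non-foamy cells 19 of them were higher and 2 lower in Trem2-/- cells (46.7%, against 43.6% of all genes), and among foamy cells 16 were higher and 7 lower (51.1%, against 30.2%). The split depends on the scale: with total counts alone, which lowers the median gene by 0.142 and 0.130 on the log2 scale in these 2 comparisons, it was 10 higher against 7 lower in the first and 10 higher against 9 lower in the second, where the median of the 45 turned from 0.09 to −0.04. In the response to cholesterol, 2 (*Cd300lf* and *Sirpa*) were higher in WT cells and 1 (*Cd36*) in Trem2-/- cells. These are 4.44% and 2.22% of the 45, against 2.8% and 0.14% of all genes called in either direction. The difference of the responses was called for 4 (8.89%, against 3.64% of all genes).

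Among 14 other receptors, 9 were tested, and 6 were higher in Trem2-/- cells without cholesterol and 4 with it, with none lower (of all genes 21.0% and 14.3% were higher). On the scale of total counts alone, 3 were higher in each. *Cd300lf* and *Cd300lb*, immune receptors for phosphatidylserine, rose by 0.60 ± 0.08 and 0.63 ± 0.07 without cholesterol (edgeR adjusted p = 9.69e-07 and 4e-07). *Cd300lf* also rose with cholesterol in WT cells (log2 0.30 ± 0.07, edgeR adjusted p = 0.0231), and its responses differed by −0.41 ± 0.10 (edgeR adjusted p = 0.0300), the direction of *Mertk* and *Mfge8*. *Cd36*, a scavenger receptor that also binds oxidized lipoprotein, went the other way: cholesterol raised it in Trem2-/- cells (log2 0.67 ± 0.10, edgeR adjusted p = 0.00167), and its responses differed by 0.99 ± 0.14 (edgeR adjusted p = 0.000141). *Stab2*, the relative of *Stab1*, was at 0.194 to 0.766 CPM in the group means and among the 5 comparisons was called only between foamy cells (log2 1.95 ± 0.54, edgeR adjusted p = 0.00851). *Timd4* and *Havcr1*, also phosphatidylserine receptors, had no count in any library.

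Among 9 other bridging molecules, 6 were tested. Of these, 5 were higher in Trem2-/- cells without cholesterol and 4 with it, with none lower (all genes: 21.0% and 14.3% higher). With total counts alone 2 were higher and 1 lower (*C1qa*, named after its values were seen) without cholesterol and 4 higher with it. The complement genes *C1qb* (log2 0.84 ± 0.10 and 1.02 ± 0.09) and *C1qc* (log2 0.44 ± 0.13 and 0.55 ± 0.12), whose protein coats apoptotic cells, were called in both, as were *Anxa1* and *Edil3*. *C1qc* and *Edil3* lost the call without cholesterol when total counts alone set the scale (edgeR adjusted p = 0.0843 and 0.368). Among the 14 genes of the engulfment machinery, 2 were higher and 2 lower among non-foamy cells, against 2 higher and 4 lower among foamy cells (all genes: 21.0% and 22.6%, then 14.3% and 15.9%). With total counts alone 1 was higher and 4 lower among non-foamy cells, and 6 were lower among foamy cells with none higher. *Elmo2*, a relative of *Elmo1*, was lower in both (log2 −0.46 ± 0.11 and −0.33 ± 0.10), as was *Ptk2*, the focal adhesion kinase (log2 −1.04 ± 0.12 and −0.66 ± 0.11). The GTPases *Rac2* (log2 0.34 ± 0.07 and 0.20 ± 0.06) and *Rhog* (log2 0.30 ± 0.07 and 0.21 ± 0.06), which act with Elmo and Dock proteins, were higher. Of these 4 calls, only that of *Rac2* without cholesterol was kept with total counts alone (log2 0.20, edgeR adjusted p = 0.00348); the other 3 values were 0.07 to 0.16 (edgeR adjusted p = 0.123 to 0.404).

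Of 9 genes of phagosome maturation, 2 were higher without cholesterol, where 21.0% of all genes were. With cholesterol 3 were higher and 2 lower, against 14.3% and 15.9% of all genes. The split was 1 higher and 2 lower in each with total counts alone. *Cybb*, the oxidase subunit needed for phagocytosis assisted by LC3, was higher in both (log2 0.60 ± 0.06 and 0.51 ± 0.06), whereas *Rubcn*, which directs that process, was lower with cholesterol (log2 −0.41 ± 0.11, edgeR adjusted p = 0.00515). Of 4 genes of do-not-eat signals, 2 were tested. *Sirpa*, the receptor of CD47, was higher in Trem2-/- cells without cholesterol (log2 0.70 ± 0.09) and rose with cholesterol in WT cells (log2 0.30 ± 0.08, edgeR adjusted p = 0.0458), and its responses differed by −0.49 ± 0.12 (edgeR adjusted p = 0.0258). *Cd47* was higher in both genotype comparisons (log2 0.28 ± 0.07 and 0.27 ± 0.06). With total counts alone *Sirpa* kept its call without cholesterol (edgeR adjusted p = 0.000507), whereas its response in WT cells (edgeR adjusted p = 0.144), the difference of its responses (edgeR adjusted p = 0.101) and both calls of *Cd47* (edgeR adjusted p = 0.0973 and 0.0794) were lost. Of 7 genes of TAM signalling and shedding, 5 were tested. Of these, 2 were higher in each genotype comparison and 1 was lower with cholesterol, also with total counts alone. Of all genes, 21.0% and 14.3% were higher in these 2 comparisons, and 15.9% were lower with cholesterol. *Adam17*, the protease that sheds Mertk from the cell surface, was higher in both (log2 0.38 ± 0.06 and 0.28 ± 0.06), and so was the adaptor *Grb2* (log2 0.89 ± 0.07 and 0.49 ± 0.06).

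**Figure D4:**
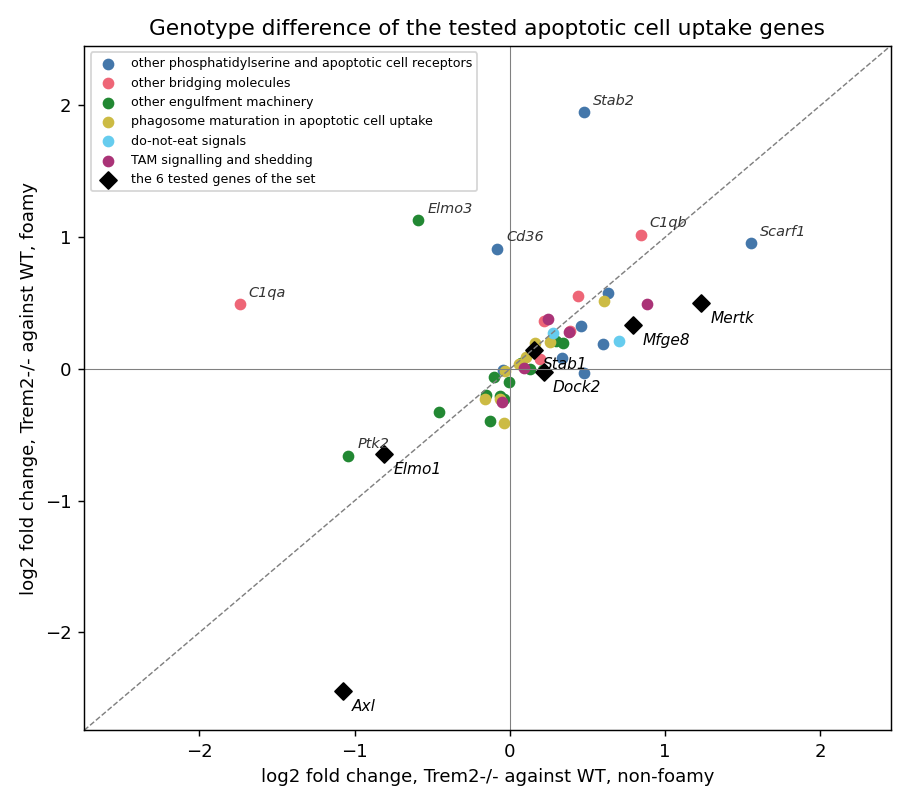
Log2 fold change of Trem2-/- against WT cells among non-foamy (horizontal axis) and foamy cells (vertical axis) for the 6 tested genes of the set (diamonds) and 45 further uptake genes (circles, coloured by role). The dashed line marks equal change. *Mertk* and *Mfge8* lie below the line on the right and *Elmo1* at the lower left. Genes past 0.9 on an axis are labelled, and of these *C1qa*, *Elmo3* and *Scarf1*, labelled after their values were seen, hold only 118 to 223 counts in all libraries.

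For each tested gene, the genes most like it were found by Pearson's r of log2 CPM over the 15 libraries, a description in which the libraries share genotype and treatment. *Mertk* was most like *Fnip2* (r = 0.991) and *Sgpl1* (r = 0.989), and within the 7 Trem2-/- libraries alone these were 0.762 and 0.675. *Mfge8* was most like *Ecm1* and *Gpnmb* (r = 0.989 each), at 0.939 and 0.941 within the Trem2-/- libraries and 0.970 and 0.968 within the 8 WT libraries. *Elmo1* was most like *E2f4* and *Nefh* (r = 0.986 each), at 0.802 and 0.90 within the WT libraries and 0.766 and 0.571 within the Trem2-/- libraries. *Dock2* was most like *Hipk1* (r = 0.957) and *Galnt6* (r = 0.948). *Stab1* and *Axl* had no gene above 0.9, with highest values of 0.835 (*Mapk8ip3*) and 0.876 (*Srpr*). For *Mertk*, *Mfge8* and *Elmo1*, 573, 424 and 811 genes had an r over 0.9, so the leading names stand among many.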

How the data were processed

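The authors deposited 1 table of raw gene counts for each of 15 libraries, whole numbers with no normalization. By the study's methods, reads from a NovaSeq run were trimmed with Trimmomatic, aligned to GRCm38 with HISAT2 and counted with featureCounts within the CHURP pipeline, and the submitters' processing notes name the build mm10. The strand setting, the treatment of read pairs and of reads with several matches are not given in the sources used here. Groups and replicate numbers were taken from the sample titles.

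Library sizes (23538963 to 41683825 counts) were adjusted by TMM (factors 0.918 to 1.11). Genes were kept by filterByExpr with a minimum count of 10, which left 14237 genes with 99.97% of all counts. The quasi-likelihood test of edgeR 4.0.16 (R 4.3.3) was fitted to all 15 libraries with a mean for each group, and p-values were adjusted by Benjamini-Hochberg over all tested genes. The biological coefficient of variation was 10.2%.

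The members and the lists of further genes were chosen with earlier results of these data known. All 10 members were named, along with at most 4 genes per list with the smallest adjusted p in a genotype comparison or the difference of the responses, and the 2 genes most like each tested member. Exonic positions, overlaps and shared stretches of 50 bases came from GENCODE M21 (GRCm38), and promoter windows from RefSeq (GRCm38.p6), in which all 10 members were found. The alternatives were DESeq2 1.42.0, RLE factors, total counts alone, no filter, a minimum of 10 counts in each library, fits of the compared groups alone, a replicate block, leaving out each library in turn and, added after the data were seen, counts halved and rounded up.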

Additional observations from a re-analysis of the deposited data

Results flagged for a closer look

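Among 21 sets of 4 libraries, each a gene in a group, 4 held a library whose gap to the nearest of the others took more of the range than chance usually gives; chance alone does this in about 1 of 20 sets. *Mertk* was at 25.17 CPM in WT non-foamy replicate 3, against 30.4 to 31.4 CPM in the other 3. *Dock2* was at 136.3 CPM in the same library, against 167 to 169 CPM. This library had the fewest counts and stood apart on the second principal component, and its part in these values was not tested. *Stab1* was at 14.84 CPM in Trem2-/- foamy replicate 3, against 10.8 to 11.4 CPM in the others. *Trem2* was at 217.6 CPM in that library, against 226 to 227 CPM.

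The response to cholesterol differed between the genotypes for 2 of the 6 tested genes, by the test of the difference itself in edgeR. Of all tested genes, 3.64% were called in this test, and 1.64% with the lower response in Trem2-/- cells. For *Mertk* the response of Trem2-/- cells minus that of WT cells was −0.7331 on the log2 scale, and for *Mfge8* it was −0.4616, a call that was lost in 11 of its 22 alternatives.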

How the results depend on the processing

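Over the 6 tested genes, 5 comparisons and all alternatives there were 491 values, of which 455 kept their direction and their side of the threshold, 20 lost a call, 4 gained one and 12 turned in direction. *Mertk* was called under every alternative in the response of WT cells (log2 0.48 to 0.63), in both genotype comparisons (1.09 to 1.27 and 0.36 to 0.59) and in the difference of the responses (−0.80 to −0.64). *Elmo1* was called under every alternative in both genotype comparisons (−0.95 to −0.76 and −0.78 to −0.60), and *Mfge8* was called under every alternative in the one without cholesterol (0.65 to 0.85). In the response of WT cells the number of genes called went from 1 to 2, by adding *Mfge8*, with DESeq2 and with no filter on low counts, and ran from 1 to 2 when single libraries were left out. In the difference of the responses it went from 2 to 1, by losing *Mfge8*, with total counts alone, and ran from 1 to 2 when single libraries were left out. No called gene changed direction. Values that turned were all uncalled: *Axl* in the response of Trem2-/- cells (−1.36 to 0.96 when single libraries were left out) and in the difference of the responses (−1.95 to 0.37), *Dock2* between foamy cells (−0.057 to 0.015 when single libraries were left out, and down to −0.15 over all alternatives) and *Stab1* in the difference of the responses (−0.12 to 0.080 when single libraries were left out, and 0.0031 with total counts alone). *Axl* could not be tested among foamy cells in 3 alternatives, where it failed the filter.

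With the replicate number as a block, the difference of the responses was called for 1 of the 6 genes (*Mertk*), and *Stab1* turned to 0.027 there. Over all genes the block moved that count from 518 to 294, and the replicate numbers did not pair the libraries (r of the deviations from −0.077 to 0.143 over 14 same-numbered pairs of compared groups, with 1 over 0.1; over all pairs of groups a library was most like the one of its own number in 10 of 42 cases). It changed no other call of the 6 genes.

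Over all genes the number called ran from 144 to 881 in the response of WT cells (399 in the fit reported), 10 to 61 in that of Trem2-/- cells (20) and 201 to 985 in the difference of the responses (518). With total counts alone as the scale, 1820 genes were called higher and 4379 lower between genotypes without cholesterol (2985 and 3222 with TMM), 1115 and 3666 with cholesterol (2036 and 2261), 179 and 249 in the response of WT cells (237 and 162), and 397 and 168 in the difference of the responses (284 and 234). The depth limits what can be said of *Tyro3*, *Gulp1*, *Gas6* and *Pros1*, with 0 to 4 counts in each library, and of *Axl*, with 0 to 25.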
